A study of Mus musculus with 8 samples.

Results

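Kinesins are motor proteins that hydrolyse ATP to walk along microtubules, or in some subfamilies to take microtubules apart. One set works on the mitotic spindle, where its members push spindle poles apart, move chromosomes and build the midzone at which the cell divides, and transcripts of that set are made mainly in late S, G2 and M phase. Another set carries vesicles, organelles and ciliary cargo in cells that need not divide. Mitotic kinesins are of interest in tumour cells because several are targets of anti-mitotic inhibitors.

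The family was taken as every non-control probe whose accession has a current symbol beginning with Kif and a digit. That rule found 66 probes for 35 genes, out of 41174 probes and 32053 features (a gene, or a probe without a symbol). The genes were placed by known role: 10 mitotic kinesins, 13 transport kinesins and 12 others. Kif14, also a mitotic kinesin, was not analysed here.

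The samples were cultured mammary tumour cell lines from FVB mice of the PyMT (polyoma middle T) tumour model, and all of them received 50 uM camptothecin (CPT) for 36 h, an inhibitor of topoisomerase I that causes replication stress. Snd1 knockdown cells (3 arrays) were the wild-type line WTA with a lentiviral LKO1 hairpin against Snd1. The W391D rescue (1 array) was the Mtdh-knockout line KO2 given mouse Mtdh carrying W391D, a change that weakens Snd1 binding, and the wild-type rescue (1 array) was KO2 given wild-type Mtdh, both from a lentiviral vector with the mPGK promoter and an ires2-GFP cassette. Vector cells (3 arrays) were WTA with the empty LKO1 vector. Hairpin and vector cells had been selected in puromycin and rescue cells sorted for GFP. Snd1 is a Tudor and nuclease domain protein, and Mtdh (metadherin) is its binding partner. Each group comes from 1 line, the rescue line differs from WTA in origin as well as in Mtdh, and no untreated cells were analysed here.

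Each array compared Cy5-labelled sample RNA with Cy3-labelled reference RNA from 11 mouse cell lines, so a value is the log2 ratio of sample to reference for 1 probe. The median Cy5 signal was 158 to 363 over a background of 61 to 72, and 78.02% to 88.47% of spots were well above background. Log ratios correlated across probes at 0.979 to 0.992 among knockdown arrays and at 0.978 to 0.99 among vector arrays, against 0.854 to 0.874 between those groups. Knockdown replicate 1 and vector replicate 1 lay on 1 slide, the other 4 of these arrays on a second, and each rescue array on its own. The hairpin's target Snd1 read -3.23, -3.33 and -3.44 in knockdown arrays and -2.49, -2.40 and -2.43 in vector arrays (log2 fold change -0.90 ± 0.06 SE, adjusted p = 1.04e-05). Mtdh read -0.10 in the W391D rescue and 0.42 in the wild-type rescue. The labels do not say whether replicates were separate cultures, so the spread behind the p-values is that between arrays and may be technical only. All 9 epithelial markers were well above background on the knockdown and vector arrays, and the leukocyte marker Ptprc read -5.76 to -6.06 in knockdown arrays and -5.95 to -6.20 in vector arrays.

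The first comparison asks which kinesin transcripts differed when Snd1 was reduced in camptothecin-treated cells. Mitotic kinesins were lower in knockdown cells almost throughout, while transport kinesins went in both directions. A gene was called when limma's adjusted p (Benjamini-Hochberg over 25684 features) was under 0.05, and its value came from its brightest probe. Of 33 kinesins tested, 13 were called lower and 9 higher, beside 21.1% of all features called lower and 23.6% called higher (44.8% in either direction). At least 2-fold changes were called lower for 4 kinesins and higher for 2, beside 1.51% and 2.27% of features. The knockdown and vector arrays did not overlap for 26 of the 33, beside 53.1% of features.

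**Figure D1:**
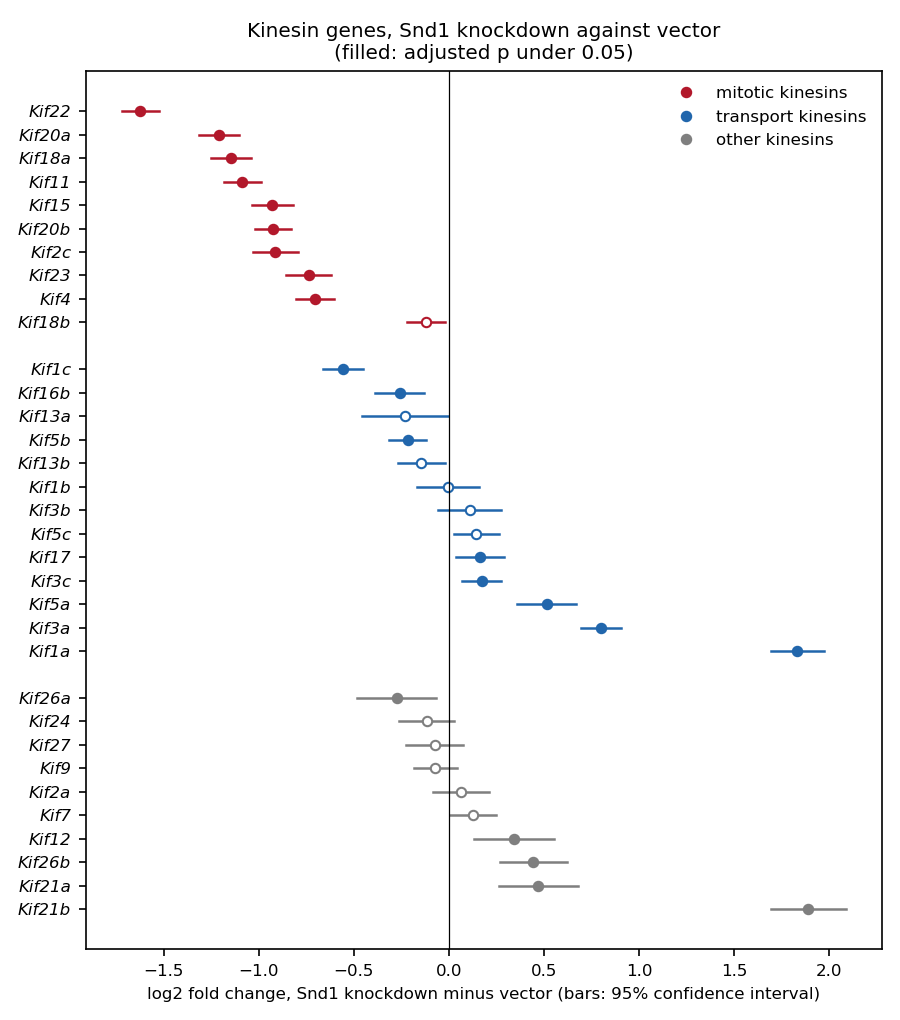
Log2 fold change of each tested kinesin gene, Snd1 knockdown minus vector (3 arrays each), with its 95% confidence interval, grouped by role and ordered by size; filled points passed an adjusted p of 0.05 and open points did not. The 10 mitotic kinesins all lie left of 0, from -1.62 to -0.12, and the 13 transport kinesins spread from -0.56 to 1.83.

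Among the 10 mitotic kinesins, 9 were called lower, 0 were called higher and 1 was not called, beside 21.1% of features lower and 23.6% higher. Their median log2 fold change was -0.93, beside 0.02 over all features tested. Within the first slide it was -0.97, and within the second -0.93. All 16 mitotic probes read lower in the knockdown mean, 4 of them by at least 2-fold. In all 10 genes every knockdown array lay below every vector array, beside 24.5% of features.

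The mitotic kinesins Kif22, Kif11 and Kif18a, with the smallest p of the class apart from Kif20a (no promoter entry), are shown with the 250 bases before their annotated start, since their transcripts moved together. Sequences are RefSeq's, on GRCm38.p6, read 5′ to 3′ on the gene's strand. Capitals mark matches, on either strand, to the motif CCAAT, which the factor NF-Y binds (it appears as ATTGG where it lies on the opposite strand). They also mark the motif TTTGAA, the cell cycle genes homology region (CHR) known from promoters active in G2 and M (opposite strand, TTCAAA).
Kif22, chr7:127042421-127042670, minus strand: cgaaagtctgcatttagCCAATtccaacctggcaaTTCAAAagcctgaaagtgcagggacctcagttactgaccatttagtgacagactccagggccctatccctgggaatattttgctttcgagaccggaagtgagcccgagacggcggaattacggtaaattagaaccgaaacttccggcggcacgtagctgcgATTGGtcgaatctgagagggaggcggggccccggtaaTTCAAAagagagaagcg
Kif11, chr19:37376132-37376381, plus strand: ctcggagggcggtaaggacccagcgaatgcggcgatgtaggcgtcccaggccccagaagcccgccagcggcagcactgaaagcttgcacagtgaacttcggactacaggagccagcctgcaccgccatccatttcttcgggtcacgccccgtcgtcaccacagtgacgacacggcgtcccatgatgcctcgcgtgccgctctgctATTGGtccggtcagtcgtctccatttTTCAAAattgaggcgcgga
Kif18a, chr2:109280488-109280737, plus strand: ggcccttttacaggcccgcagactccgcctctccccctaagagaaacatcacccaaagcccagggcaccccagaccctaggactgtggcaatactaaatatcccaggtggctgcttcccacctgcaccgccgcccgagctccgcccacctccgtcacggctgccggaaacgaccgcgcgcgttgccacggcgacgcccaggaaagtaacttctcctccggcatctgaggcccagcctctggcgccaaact

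Kif22 is a chromokinesin that pushes chromosome arms toward the spindle equator. It read -0.95, -0.94 and -0.99 in knockdown arrays and 0.64, 0.67 and 0.68 in vector arrays. All knockdown arrays were thus below the reference RNA and all vector arrays above it. The fall of Kif22 was 3.08-fold (-1.62 ± 0.04 SE on the log2 scale, adjusted p = 7.97e-08). The sequence printed above holds both motifs more than once, with a TTCAAA at position -17 from the start.

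Kif11 (Eg5) is the tetrameric motor that slides spindle poles apart. It read -1.16, -1.19 and -1.23 in knockdown arrays against -0.12, -0.10 and -0.10 in vector arrays. The groups stood far apart relative to their spread, with a log2 fold change of -1.09 ± 0.04 (adjusted p = 5.23e-07). A dimmer second Kif11 probe gave a smaller difference of -0.49. Kif15, which keeps spindles bipolar when Kif11 is inhibited, read -1.99, -2.10 and -2.05 in the knockdown and -1.13, -1.14 and -1.09 in vector cells. That was a fall of 1.91-fold (-0.93 ± 0.05, adjusted p = 1.9e-06), and its dimmer probe gave -0.41.

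Kif18a, which walks to microtubule plus ends and damps chromosome movements at metaphase, read -0.54, -0.51 and -0.60 in knockdown arrays and 0.56, 0.63 and 0.61 in vector arrays. It fell 2.21-fold (-1.15 ± 0.05, adjusted p = 6.76e-07). Its relative Kif18b, which acts on astral microtubules, read 0.57, 0.56 and 0.63 in the knockdown against 0.74, 0.69 and 0.69 in vector cells. The groups did not overlap, but the difference of -0.12 ± 0.04 did not pass the test (adjusted p = 0.0553). Kif18b passed under 8 of 21 alternative settings, the slide as a block among them (adjusted p = 0.0419), and its values ran from -0.29 to -0.10 over all 21.

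The kinesins of chromosome arms, centromeres and the central spindle also fell. Kif20a (Mklp2), which brings Aurora B to the central spindle, read -0.73, -0.78 and -0.73 in knockdown arrays and 0.51, 0.43 and 0.44 in vector arrays. The change was a 2.31-fold fall (-1.21 ± 0.05, adjusted p = 4.4e-07). Kif23 (Mklp1), the motor of the centralspindlin complex, read -0.83, -0.69 and -0.71 in the knockdown and 0.02, -0.04 and 0.00 in vector cells. It fell 1.67-fold (-0.74 ± 0.05, adjusted p = 1.1e-05), and its second probe gave -0.70.

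Kif20b, a motor of late cytokinesis, read -0.78, -0.76 and -0.77 in knockdown arrays against 0.19, 0.14 and 0.14 in vector arrays. Its 3 probes gave -0.92, -0.94 and -0.80, so they differed little (adjusted p = 1.08e-06 for the brightest). Kif4, a chromokinesin that limits the length of the central spindle with Prc1, read -1.21, -1.18 and -1.13 in the knockdown and -0.47, -0.47 and -0.46 in vector cells. It fell by 0.70 ± 0.04 on the log2 scale (adjusted p = 4.92e-06), with -0.65 from a second probe. Kif2c (MCAK), a microtubule depolymerase at centromeres, read -0.48, -0.33 and -0.43 in the knockdown and 0.49, 0.51 and 0.49 in vector cells. Its fall was 1.88-fold (-0.91 ± 0.05, adjusted p = 3.03e-06).

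**Figure D2:**
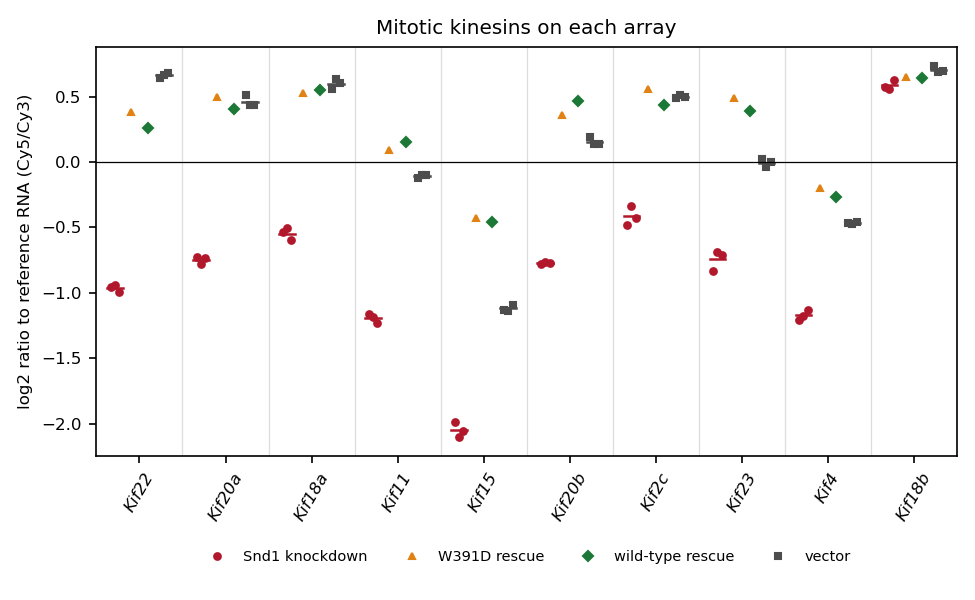
Log2 ratio to the reference RNA of the 10 mitotic kinesins on each array, with Snd1 knockdown, W391D rescue, wild-type rescue and vector from left to right within a gene; points are arrays and short bars are means of 3. Knockdown arrays lie below vector arrays in every gene, most narrowly in Kif18b, and both rescue arrays lie below all vector arrays only in Kif22, Kif18a and Kif18b.

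Transcripts of proteins that work with the mitotic kinesins were also lower. Of 19 measured partners of the mitotic kinesins, 18 were called lower and 0 higher, beside 21.1% and 23.6% of features. Their median was -0.94. Cit, the midbody kinase citron, was not called (-0.02). Birc5 (survivin), a subunit of the chromosomal passenger complex, read 0.55, 0.50 and 0.52 in the knockdown and 2.05, 2.00 and 2.04 in vector cells. It was 2.84-fold lower (-1.51 ± 0.04), and its complex partner Aurkb was lower by -1.30 ± 0.04. Plk1, the polo-like kinase that controls mitotic entry and spindle assembly, gave -1.41 ± 0.05, and Ect2, the RhoA activator that Racgap1 recruits to the midzone, gave -1.35 ± 0.04. Of the kinesins whose symbols the rule does not take, all 3 measured were called lower, beside 21.1% of features. Cenpe, the kinetochore kinesin, fell most (-1.49 ± 0.05), followed by Kifc3 (-0.48 ± 0.05) and the minus-end spindle motor Kifc1 (-0.40 ± 0.08).

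General markers of cycling cells moved with the mitotic kinesins: 13 of 14 were called lower and 1, Pcna, higher, beside 21.1% and 23.6% of features. The mean log2 ratio of the 14 was -0.66 to -0.63 in knockdown arrays, 0.34 in the W391D rescue, 0.29 in the wild-type rescue and 0.22 to 0.25 in vector arrays. Mki67, a marker of cells in cycle, gave a log2 fold change of -1.23 ± 0.05. In bulk RNA, fewer cells of a type and less RNA per cell cannot be told apart. Markers of other cell types moved as well: 6 of 9 tested fibroblast markers were called higher, beside 23.6% of features. Means of the fibroblast list were -2.84 to -2.79 in knockdown arrays and -3.71 to -3.67 in vector arrays. The list's median log2 fold change was 0.20. Only 3 of its genes were called higher by at least 2-fold, beside 2.27% of features: Col1a1 (2.39), Pdgfrb (2.44) and Postn (2.72). The others tested ran from 0.02 (Dcn) to 0.40 (Col1a2). Of 9 epithelial markers, 6 were called lower and 2 higher, beside 21.1% and 23.6% of features. Means of the epithelial list were 1.88 to 1.95 in knockdown arrays and 2.06 to 2.16 in vector arrays. The part of these markers in the kinesin differences was not tested.

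Among the 13 transport kinesins, 5 were called higher, 3 lower and 5 were not called. Their median log2 fold change was 0.11 (0.14 within the first slide, 0.09 within the second), beside 0.02 over all features. It was 0.0428 without knockdown replicate 1 and 0.0454 with median centring. Of 28 measured transport probes, 17 read higher and 11 lower. The shares called lay closer to those of all features than the mitotic share did: 5 of 13 were higher beside 23.6% of features, and 3 of 13 lower beside 21.1%.

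For the transport kinesins Kif1a, Kif3a and Kif1c, with the smallest p of their class, the same stretch of the promoter is printed for comparison with the mitotic genes, with motifs in capitals as above.
Kif1a, chr1:93101875-93102124, minus strand: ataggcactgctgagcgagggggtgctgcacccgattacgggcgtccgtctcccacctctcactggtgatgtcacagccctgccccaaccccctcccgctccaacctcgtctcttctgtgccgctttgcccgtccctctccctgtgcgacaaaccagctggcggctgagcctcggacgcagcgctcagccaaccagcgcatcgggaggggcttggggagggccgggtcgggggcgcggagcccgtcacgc
Kif3a, chr11:53567119-53567368, plus strand: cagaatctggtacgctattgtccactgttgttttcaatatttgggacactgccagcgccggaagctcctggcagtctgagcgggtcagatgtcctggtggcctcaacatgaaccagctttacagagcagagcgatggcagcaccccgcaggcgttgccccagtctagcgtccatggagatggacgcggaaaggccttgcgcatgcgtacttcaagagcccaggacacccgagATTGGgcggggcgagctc
Kif1c, chr11:70700298-70700547, plus strand: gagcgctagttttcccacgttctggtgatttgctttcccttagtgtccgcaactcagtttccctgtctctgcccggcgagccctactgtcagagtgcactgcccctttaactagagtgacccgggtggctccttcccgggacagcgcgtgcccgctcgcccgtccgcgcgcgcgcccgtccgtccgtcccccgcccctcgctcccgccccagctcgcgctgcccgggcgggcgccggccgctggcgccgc

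Kif1a, the kinesin-3 motor of synaptic vesicle precursors in neurons, read 2.28, 2.40 and 2.31 in knockdown arrays, -0.01 in the W391D rescue, 0.16 in the wild-type rescue and 0.41, 0.59 and 0.49 in vector arrays. The knockdown arrays stood above all others (knockdown above vector without overlap in 28.7% of features), with a 3.56-fold rise over vector (1.83 ± 0.06, adjusted p = 2.45e-07). A second, dimmer Kif1a probe also rose, by only 0.37, and the mean of both probes gave 1.1. The printed sequence of Kif1a holds neither motif, but a second RefSeq window of the gene holds TTTGAA at position -44 from its start. Kif1b, which carries mitochondria and synaptic vesicle precursors, overlapped between groups, at -0.50, -0.42 and -0.32 in the knockdown and -0.53, -0.33 and -0.37 in vector cells (-0.00 ± 0.07, adjusted p = 0.975). Its other 3 probes gave -0.16, -0.30 and 0.07.

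Kif1c, a kinesin-3 motor of dense-core vesicles and integrins, went the other way from Kif1a. It read -0.25, -0.19 and -0.27 in knockdown arrays against 0.28, 0.32 and 0.36 in vector arrays, a 1.47-fold fall (-0.56 ± 0.05, adjusted p = 2.39e-05). The 4 probes of Kif1c did not give 1 answer: the next brightest gave -0.52, and the other pair gave -0.02 and 0.07. Kif16b, which moves early endosomes, was lower by -0.26 ± 0.06 (adjusted p = 0.0058), at -1.25 to -1.41 in the knockdown and -1.06 to -1.11 in vector cells, while its dimmer probe gave 0.07. Kif13a (-0.23 ± 0.10, adjusted p = 0.0963) and Kif13b (-0.15 ± 0.05, adjusted p = 0.059), motors of endosomes and membrane receptors, did not pass. A second Kif13a probe gave 0.03. With the slide as a block, both passed (adjusted p = 0.022 for Kif13a and 0.0414 for Kif13b).

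The kinesin-2 motors, which drive transport in cilia and of other cargo, were higher or not called. Kif3a read 0.78, 0.71 and 0.78 in knockdown arrays and 0.00, -0.08 and -0.05 in vector arrays. Every knockdown array was above the reference RNA while vector arrays were near or below it, a 1.74-fold rise (0.80 ± 0.05, adjusted p = 3.52e-06). The second Kif3a probe gave 0.05 and the mean of both 0.42, so the rise was seen with 1 of its 2 probes. Its partner Kif3b read 0.62, 0.42 and 0.42 in the knockdown and 0.48, 0.35 and 0.31 in vector cells and did not pass (0.11 ± 0.07, adjusted p = 0.265; 0.0481 with the slide as a block), and its second probe gave 0.19. Kif3c, the other partner, was higher by 0.17 ± 0.04 (adjusted p = 0.0139), and 8 of 21 alternatives ended that call; its second probe gave 0.06. Kif17, the homodimeric kinesin-2, was called at 0.16 ± 0.05 (adjusted p = 0.0406), and 16 of 20 alternatives ended the call. Of 5 ciliated-cell markers tested, 1 (Foxj1) was called lower and 0 higher, beside 21.1% and 23.6% of features.

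Kif5a, Kif5b and Kif5c encode the heavy chains of conventional kinesin. Kif5b, the form found in most tissues, read -0.16, -0.14 and -0.19 in knockdown arrays and 0.02, 0.05 and 0.09 in vector arrays, a small fall (-0.22 ± 0.04, adjusted p = 0.00356) that its second probe did not share (0.07). Kif5a, best known from neurons, read -0.72, -0.76 and -0.80 in the knockdown and -1.23, -1.42 and -1.18 in vector cells. It rose 1.43-fold (0.51 ± 0.07, adjusted p = 0.00037). Kif5c read 1.02, 1.07 and 1.02 in the knockdown and 0.81, 0.95 and 0.92 in vector cells and missed the threshold (0.14 ± 0.05, adjusted p = 0.0526), which it passed with the replicate block (adjusted p = 0.0349), while its second probe gave 0.01. Of 8 neuronal markers, 1 (Tubb3) was called higher and 1 (Map2) lower, beside 23.6% and 21.1% of features.

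**Figure D3:**
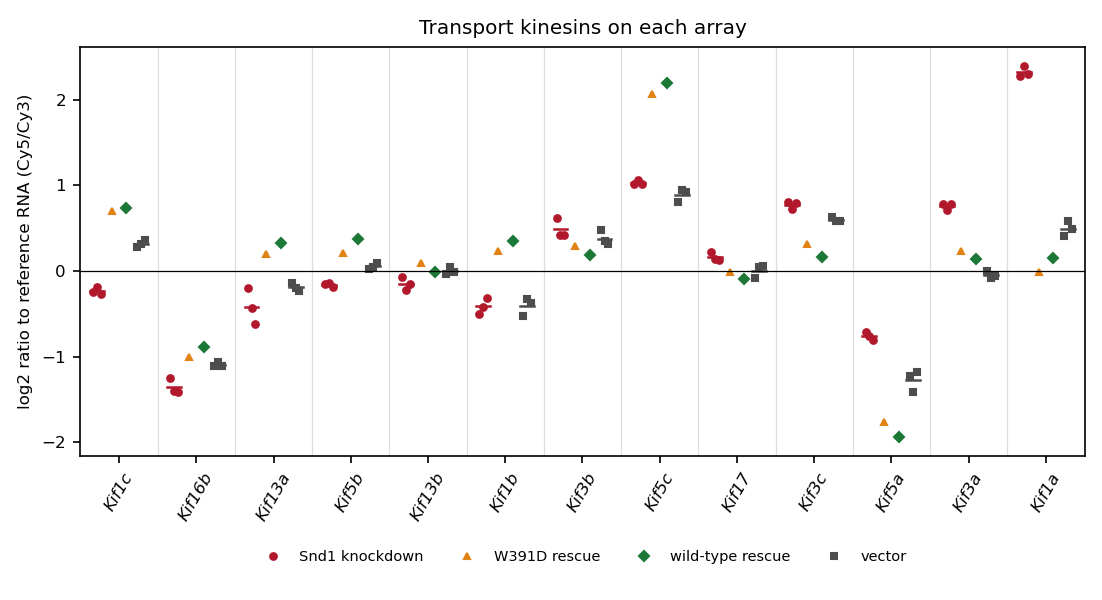
Log2 ratio to the reference RNA of the 13 transport kinesins on each array, with Snd1 knockdown, W391D rescue, wild-type rescue and vector from left to right within a gene; points are arrays and short bars are means of 3. Each gene is drawn by its brightest probe. Knockdown arrays stand above all others in Kif1a, Kif3a, Kif3c, Kif5a and Kif17, most widely in Kif1a. They stand below all others in Kif1c, Kif16b, Kif5b and Kif13b. Kif17 was dim, well above background on 2 of the 3 vector arrays. Knockdown lay above vector without overlap in 28.7% of features and below in 24.5%. Both rescue arrays stand above all others in Kif5c, Kif1b, Kif1c, Kif13a, Kif5b and Kif16b, and below all others in Kif1a, Kif3b, Kif3c and Kif5a.

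Light chains, adaptors and cargo linkers of the transport kinesins were split, with a median of 0.03. Of 24, 9 were called higher and 9 lower, beside 23.6% and 21.1% of features. Arl8a, a small GTPase that couples lysosomes to kinesin, read 1.55, 1.51 and 1.57 in knockdown arrays and 0.16, 0.06 and 0.07 in vector arrays, a 2.73-fold rise (1.45 ± 0.05). Zfyve27 (protrudin), which links late endosomes to Kif5, rose by 0.83 ± 0.04 on the log2 scale, and Mapk8ip3 (JIP3), a cargo adaptor of conventional kinesin, by 0.82 ± 0.05. Dlg1, a scaffold bound by Kif13b, fell by 0.54 ± 0.04.

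The kinesins placed in neither class included a rise of about the size of that of Kif1a. Kif21b, a kinesin-4 motor that restrains microtubule growth in neurons and lymphocytes, read -1.96, -2.03 and -2.21 in knockdown arrays, -4.02 in the W391D rescue, -4.15 in the wild-type rescue and -4.10, -3.86 and -3.91 in vector arrays. It stayed far below the reference RNA on every array and was 3.71-fold higher in the knockdown (1.89 ± 0.09, adjusted p = 1.17e-06). The order of Kif21b and Kif1a turned with the setting: median centring gave 1.88 for Kif21b and 2.17 for Kif1a, and the Cy5 channel alone 1.93 and 2.46. A dimmer Kif21b probe gave 0.31. Its relative Kif21a read -1.40, -1.29 and -1.11 in the knockdown and -1.88, -1.66 and -1.66 in vector cells (0.47 ± 0.09, adjusted p = 0.00303), with 0.26 from its second probe.

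Of the 10 other kinesins tested, 4 were called higher, 1 lower and 5 were not called, beside 23.6% of features higher and 21.1% lower. Their median was 0.10. Kif26b, an atypical kinesin, was higher by 0.44 ± 0.08 (adjusted p = 0.0017), and Kif12 by 0.34 ± 0.09 (adjusted p = 0.0158), with 0.11 from a second, dimmer Kif12 probe. Kif26a, which lacks ATPase activity, was lower by -0.27 ± 0.09 (adjusted p = 0.0363), and 5 of 21 alternatives ended the call, among them each of the fits without knockdown replicate 1 (-0.18), vector replicate 2 (-0.26) or vector replicate 3 (-0.23). Its second probe gave 0.08. The Hedgehog pathway kinesin Kif7 (0.13 ± 0.05), the centriolar depolymerase Kif24 (-0.12 ± 0.06), Kif27 (-0.08 ± 0.07) and Kif9 (-0.07 ± 0.05) did not pass, and neither did Kif2a, a depolymerase of spindle poles and neurons (0.07 ± 0.06). A second Kif2a probe of similar brightness gave 0.45, with -0.32, -0.26 and -0.23 in the knockdown and -0.71, -0.72 and -0.73 in vector cells. Kif2b and Kif6 were not well above background on any of the 6 arrays and were not tested.

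Every one of the 22 called kinesins had the same sign on both slides. The calls were made on the arrays of these same slides, which favours equal signs. The equal signs are therefore not an independent check, and no share for all called features is given beside them. With the slide as a block 27 kinesins were called, 11 higher and 16 lower, among them 10 of 10 mitotic and 12 of 13 transport kinesins, while 7258 features were called higher and 6085 lower. The split of calls depended on the scale, for kinesins and for all features: the scanner software's own log ratios gave 7 kinesins higher and 17 lower (5230 and 5597 features), the series' value table made from them gave the same kinesin counts, and the Cy5 channel alone gave 5 higher and 14 lower (3622 and 4147 features). Without these changes 6074 features were called higher and 5423 lower.

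Several genes had further probes. All further probes of mitotic genes were lower, and those of Kif20b, Kif23 and Kif4 were within 1.5 times of the brightest. Among transport kinesins, Kif16b, Kif5b, Kif13a, Kif1b and Kif1c each had a measured probe whose sign was opposite to that of the brightest. The added offset of 50 shrinks ratios of dim probes, and which transcripts each probe detects was not tested.

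**Figure D4:**
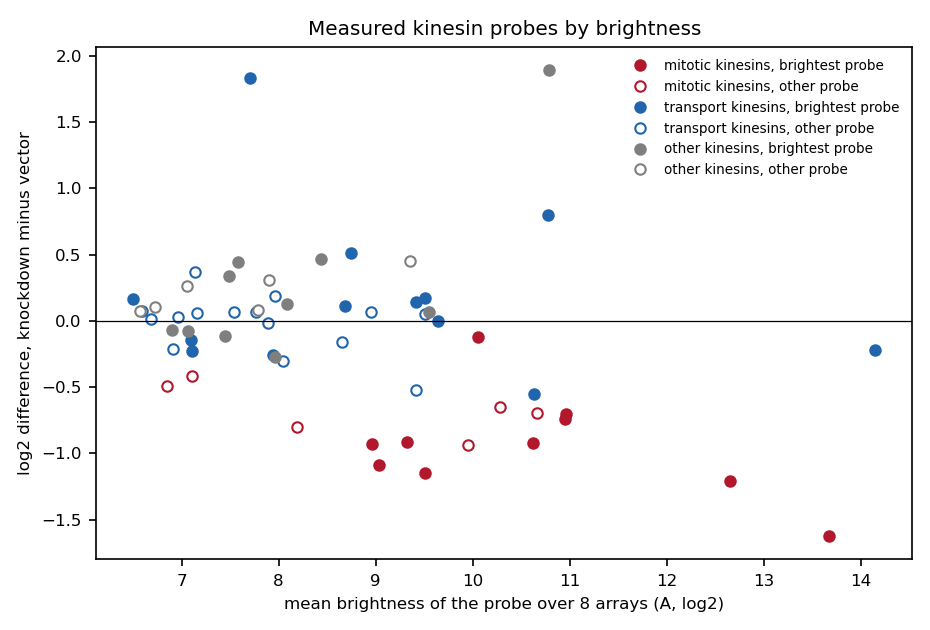
Log2 difference, knockdown minus vector, of each kinesin probe measured well above background (3 or more of the 6 arrays), against its mean brightness over the 8 arrays; filled points are the brightest probe of a gene and open points its other probes. All 16 mitotic probes lie below 0, and the smaller differences among them include the 2 dimmest; transport and other probes lie on both sides of 0.

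The order of the mitotic and transport medians, each relative to the reference RNA, was reversed in the knockdown. The median log2 ratio of the mitotic kinesins minus that of the transport kinesins was -0.74, -0.63 and -0.60 in knockdown arrays, 0.23 in both rescue arrays, and 0.34, 0.24 and 0.23 in vector arrays. The mitotic medians alone were -0.80, -0.77 and -0.75 in knockdown arrays, 0.44 in the W391D rescue, 0.40 in the wild-type rescue, and 0.34, 0.29 and 0.29 in vector arrays. The transport medians were -0.07, -0.14 and -0.15 in knockdown arrays, 0.21 in the W391D rescue, 0.17 in the wild-type rescue, and 0.00, 0.04 and 0.05 in vector arrays. They were thus lower on each knockdown array than on each vector array, although the median of the genes' own fold changes was 0.11. These medians describe members chosen with earlier results known and carry no test.

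The starts of the genes were set beside these classes, with each window running from 250 bases before to 50 after the RefSeq start. Windows were matched for 30 of the 35 genes; Kif20a, Kif5a, Kif5b, Kif13b and Kif21b had no entry. TTTGAA, on either strand, occurred in 8 of 9 mitotic kinesins, 1 of 10 transport kinesins (Kif1a, in its second window only) and 2 of 11 others, beside 20.2% of 27025 genes. Its match began within 30 bases of the start in 7 of the 9 mitotic genes, in 0 of 10 transport genes and in 1 of 11 others (Kif26b), beside 3.66% of genes. That distance was chosen after the positions were seen. Kif18a fell 2.21-fold without a match to any of the motifs in this window, and Kif18b, which was not called, holds both motifs marked above. The motif CCAAT occurred in 5 of 9 mitotic, 3 of 10 transport and 5 of 11 other kinesins, beside 41.1% of genes, a share near the background. TTTAAA, a variant of the CHR that is its own reverse complement, occurred only in Kif2c among the 30, beside 14.9% of genes. No matches in these windows shared a base, and a match of letters is a description, not a binding site.

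**Figure D5:**
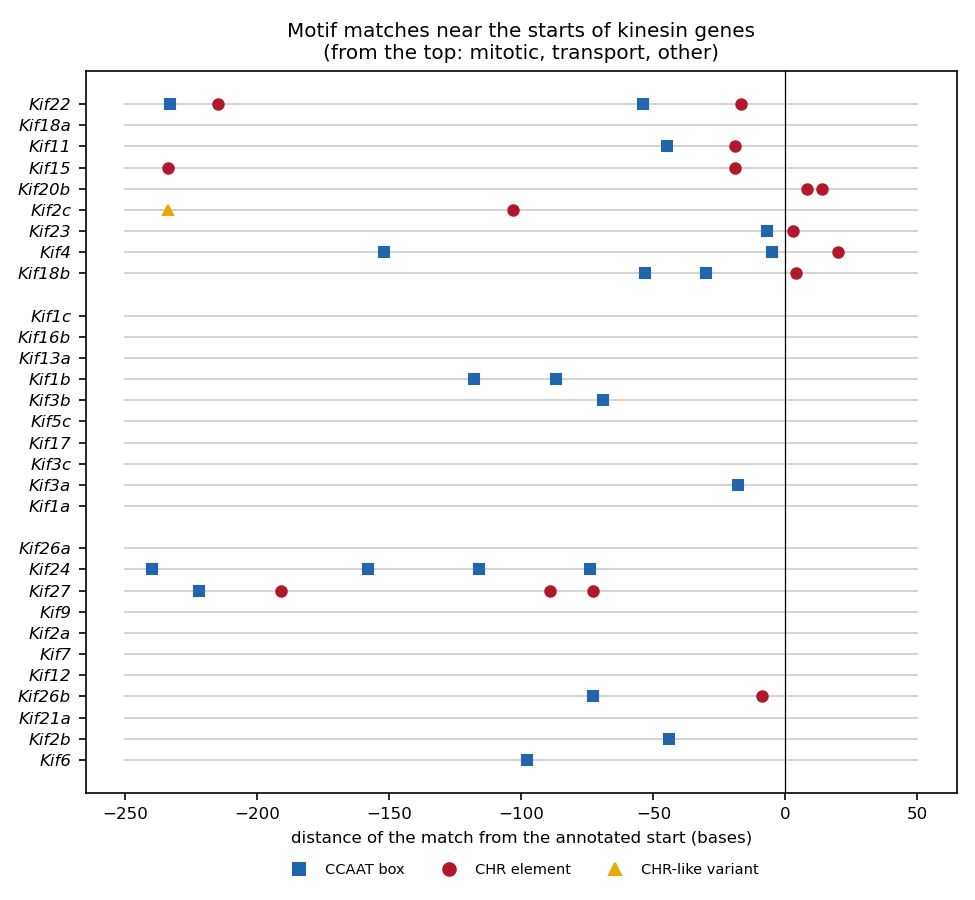
Positions of CCAAT box, CHR element and CHR-like variant matches on either strand, as distance in bases from the annotated start (negative is upstream), for the 30 kinesin genes with a RefSeq window; where a gene has several windows the first is drawn, which leaves out the Kif1a match in its second window. CHR matches cluster within 30 bases of the start in 7 of 9 mitotic kinesins and in 0 of the 10 transport kinesins.

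The second comparison asks whether kinesin transcripts differed between Mtdh-knockout cells rescued with W391D and with wild-type Mtdh. Mtdh itself read 1.43-fold lower in the W391D rescue (-0.52), so the mutation and the level of Mtdh cannot be told apart. With 1 array a group there is no replicate check and no test. By the brightest probe, 34 kinesins were measured above background on either array. Of these, 0 differed by 1.5-fold or more between the W391D and the wild-type rescue by that probe. Over 27028 features the share was 0.166% (0.0851% lower and 0.0814% higher in W391D). Log2 differences ran from -0.49 in Kif26a to 0.34 in Kif12. The 10 mitotic kinesins had a median difference of 0.05 and a range of -0.11 to 0.12, and 7 of them were higher and 3 lower in the W391D rescue, beside 50.2% of features lower. Dimmer Kif20b probes differed more than its brightest (-0.11). One read 0.95 in the W391D rescue and 1.54 in the wild-type rescue, a difference of -0.59 that passed 1.5-fold. The dimmest gave -0.31. Dimmer probes of Kif11, Kif15, Kif23 and Kif4 were higher in the W391D rescue, by 0.09 to 0.14. With the mean of all probes, 0 kinesins passed 1.5-fold. By the brightest probe, the transport kinesins ranged from -0.17 to 0.18. Kif22 read 0.38 in the W391D rescue and 0.26 in the wild-type rescue, Kif11 read 0.09 and 0.15 in the same order, and Kif1a read -0.01 and 0.16.

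The scale mattered for the count. With the scanner software's log ratios 2 kinesins passed 1.5-fold, Kif12 (0.69) and Kif26a (-0.60), but so did 4.16% of all features, and with the Cy5 channel alone Kif12 passed (1.14), beside 3.95%.

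The rescue arrays come from another line, and they were set beside the vector arrays, which received the same drug. Both rescue arrays lay above all 3 vector arrays for 18 of 33 kinesins, below them for 7 and neither for 8, beside 34.4% of features above and 28% below. No test was made, since line, vector, selection, slide and Mtdh genotype cannot be told apart. Of the mitotic kinesins, 5 lay above and 3 below. By the brightest probe, Kif15 read -0.43 and -0.46 in the W391D and wild-type rescues against -1.13, -1.14 and -1.09 in vector arrays. That was the widest mitotic gap (0.68). The dimmer Kif15 probe gave a narrower gap, with -0.07 and -0.16 in these rescues against -0.38, -0.17 and -0.41 in vector arrays. Kif22 lay lower in the rescue arrays, by -0.34.

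Wider gaps between rescue and vector arrays were found among transport and other kinesins. Kif5c read 2.06 and 2.20 in the W391D and wild-type rescues against 0.81, 0.95 and 0.92 in vector arrays, a gap of 1.24. Its dimmer probe gave a narrower gap, with 0.67 and 0.59 in these rescues against 0.23, 0.34 and 0.24 in vector arrays. Kif27, related to the Hedgehog kinesin Kif7, read 1.64 in both rescue arrays against 0.43, 0.53 and 0.61 in vector arrays. Kif21a (0.95), Kif7 (0.75) and Kif1b (0.70) were also higher in the rescue arrays. A dimmer Kif21a probe read -0.13 and -0.05 in the W391D and wild-type rescues against -0.30, -0.28 and -0.48 in vector arrays. Kif5a was lower, at -1.76 and -1.94 in the rescues against -1.23, -1.42 and -1.18 in vector arrays, and so were Kif1a (-0.42) and Kif3c (-0.36). Dimmer probes of Kif1a and Kif3c did not share this. For Kif1a that probe read 0.02 and 0.12 in the W391D and wild-type rescues against -0.05, -0.02 and 0.02 in vector arrays. For Kif3c it read 0.06 and 0.03 against 0.01, 0.12 and 0.10. Of these genes, Kif5c, Kif27, Kif7 and Kif1b were not called between knockdown and vector, while Kif21a, Kif5a, Kif1a and Kif3c were called higher in the knockdown.

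Against the reference RNA itself, the 3 vector arrays lay above it for 14 of 33 kinesins, below it for 15 and on both sides for 4, beside 41.7% of features above and 42.7% below. Among mitotic kinesins 6 lay above and 3 below. The reference is a mix of cell lines, so this order describes these cells relative to that mix only.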

How the data were processed

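RNA of 8 cell samples was hybridised on 2-colour Agilent arrays, 1 sample per array, with Cy5 on the sample, Cy3 on the reference and no dye swap, per the labels' protocols. The median spot and background intensity values used are those deposited by the authors, extracted with Agilent Feature Extraction 11.0.1.1 per the file headers (9.5.3.1 per the submitters' processing notes), without normalization. Those files also hold deposited log10 ratios, which the software made after subtracting background and normalizing the dyes, per the file headers. The series' deposited table gives log2 values, Cy5 over Cy3, made by the authors: 93.9% to 98% of 41156 probes were within 0.01 of the same array's log10 ratio put on that scale (column medians 0.09, 0.10 and 0.12 for knockdown, 0.04 for the W391D rescue, 0.03 for the wild-type rescue, and 0.15, 0.12 and 0.12 for vector, so the columns were not centred).

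Signals were corrected with normexp (offset 50) and normalized by loess within each array in limma 3.58.1 (R 4.3.3). The 1639 control spots and 77 to 142 outlier spots per array were left out, and no spot was saturated. The 245 probes in more than 1 spot were averaged. The scanner files pair probes with accessions, and unversioned accessions were matched to symbols of a RefSeq table (GRCm38.p6, used for names and promoters), so that 27668 probes had a symbol (18883 in all) and 13506 had none. The brightest probe stood for a gene. For knockdown against vector, further probes that met the filter below are reported where their sign is opposite or their value over 1.5 times apart. For the rescue arrays, further probes are given for some genes only. Features well above background in Cy5 on at least 3 of the 6 arrays were tested with lmFit and eBayes. The design had foreseen protein sequences beside the promoters, and they are not used here.

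The kinesin classes, partner lists and marker lists, and the rule that names all members and up to 4 called genes per partner list with the smallest p, were chosen with earlier results of these data known. Knockdown and vector arrays share replicate numbers in the labels. After subtracting group means, arrays with the same number correlated at 0.597, 0.326 and 0.338, which met the rule for taking the numbers as pairs. The main fit had no block, and the replicate block was an alternative. The pairing follows the slides: differently numbered arrays of 1 slide correlated at 0.39 and 0.247, and arrays across slides at -0.499 to -0.378. Alternatives were other background, normalization, channel, probe, filter, block, weight and threshold choices and each array left out. The number of arrays limits the precision.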

Additional observations from a re-analysis of the deposited data

How the results depend on the processing

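Over the 33 kinesins and 21 alternatives, 613 gene values kept their direction and side of the threshold, 38 passed only under the alternative, 35 no longer passed and 6 changed sign. The 9 called mitotic kinesins passed under every alternative, and leaving out 1 array gave 9 mitotic calls each time, 6 to 9 transport calls and 18 to 22 kinesin calls in all (12 to 14 lower, 6 to 8 higher), with mitotic medians of -0.94 to -0.92 and transport medians of 0.0428 to 0.142. Over all features, leaving out 1 array gave 4762 to 5371 called lower and 5171 to 6046 called higher. The transport median was 0.0428 without knockdown replicate 1. The mitotic median was -1.17 with the software's log ratios and -1.17 with the value table, -1.15 with median centring, -1.11 with the Cy5 channel alone and -0.84 with the mean of all probes. The transport median was 0.0454 with median centring and 0.0528 with Cy5 above background on all 6 arrays. The Cy5 channel alone called 5 kinesins higher. Sign changes were Kif2a (-0.0487 with median centring) and Kif1b (0.0038 with scaling between arrays, and -0.0632 to 0.0415 with 1 array left out), neither of them called there. Between the rescues, 2 kinesins passed 1.5-fold with the software's log ratios, 2 with the value table and 1 with the Cy5 channel alone. The cause of these shifts was not tested.

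With the replicate block, Kif5c (adjusted p = 0.0349) and Kif13a (adjusted p = 0.0209) were gained, no called kinesin was lost, and 24 kinesins, 9 of them mitotic, were called. Over all features 6991 were then called higher and 5914 lower, against 6074 and 5423 without it. The Cy5 channel alone called 3622 higher and 4147 lower. On the second slide only, an alternative chosen after seeing the data, 23 kinesins were called, while 6731 features were called higher and 5831 lower. Kif13a (adjusted p = 0.00954) and Kif13b (adjusted p = 0.0163) were gained there and Kif17 was lost (adjusted p = 0.14). Signal over background limits the dim members: the second probes of Kif17, Kif5a and Kif7 were above background on few arrays.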

Other observations

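Other parts of the microtubule system, from lists chosen with earlier results known, showed less of one direction than the mitotic kinesins. Dynein and dynactin genes form the motor that walks the opposite way to most kinesins. Of 22, 8 were called higher and 7 lower in Snd1 knockdown cells, beside 23.6% and 21.1% of features. Their median log2 fold change was 0.03. Dynlt3, a dynein light chain, read 1.30, 1.25 and 1.22 in knockdown arrays and 0.61, 0.58 and 0.59 in vector arrays (0.67 ± 0.04). The light chain Dynll1 (0.54 ± 0.04) and the dynein regulator Ndel1 (0.57 ± 0.05) also rose. Nde1, a regulator of dynein in dividing cells, fell (-0.38 ± 0.04).

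Of 14 tubulin genes, 3 were called higher and 5 lower, beside 23.6% and 21.1% of features, with a median of 0.03. The largest falls were in Tube1 (-0.97 ± 0.05) and Tubd1 (-0.72 ± 0.05), which encode the epsilon and delta tubulins of centrioles. Tube1 read -1.12, -0.99 and -0.99 in knockdown arrays and -0.05, -0.07 and -0.07 in vector arrays. Tuba8 fell by 0.54 ± 0.05 on the log2 scale, and Tubb3, a tubulin best known from neurons, rose by 0.60 ± 0.05.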
